A study of Mus musculus with 6 samples.

Results

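Respiratory complex I, the NADH:ubiquinone oxidoreductase of the inner mitochondrial membrane, was examined through 35 of the nuclear genes that encode its subunits, chosen by gene symbol out of 49315 genes in the table. The symbols were matched to mouse Ensembl identifiers in GENCODE M21 (GRCm38), and all 35 were present and had enough counts to be tested; other nuclear subunit genes are not analysed here. Bulk RNA sequencing was done on hearts of C57BL/6 mice, 3 labelled wild-type and Txnip WT and 3 labelled conditional knock-in and Txnip C247S mutant. Both groups carry the same treatment label, which names MerCreMer, a Cre recombinase activated by tamoxifen derivatives, and 4-hydroxytamoxifen. The sources used here give neither the promoter that drives the recombinase nor whether the wild-type hearts carried it, and no age or sex. The design asks which heart transcripts differ when a cysteine of the thioredoxin-interacting protein Txnip is replaced by serine. Library totals ran from 14146048 to 15620476 counts. Txnip, the targeted gene, had CPM values (library-scaled counts, with TMM normalisation) of 724, 791 and 741 for wild-type and 438, 391 and 429 for knock-in hearts, with no overlap (log2 fold change -0.84 ± 0.09 SE, edgeR adjusted p = 0.00379). Gene counts do not read the edited base.

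Complex I takes electrons from NADH, passes them along a flavin and a chain of iron-sulphur clusters to ubiquinone, and uses the energy to pump protons. Its matrix arm holds the electron path and its membrane arm the pumps, whose core proteins come from mitochondrial DNA. The nuclear genes supply the remaining core subunits of the matrix arm and many accessory subunits that surround both arms. Heart muscle is rich in mitochondria and depends on this chain for most of its ATP.

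Nuclear respiratory factor 1 (NRF1) is a transcription factor known for binding the promoters of many respiratory chain genes at a GC-rich palindrome. RefSeq start sites (GRCm38.p6) with 250 bases of upstream sequence were found for 32 of the 35 genes. A form of that palindrome with 1 free base (GCGC, any base, then TGCGC, or on the other strand GCGCA, any base, then GCGC) occurred upstream of 6 of these 32 genes (18.8%). They occurred for 9.26% of the tested genes with a start in that table and 4.23% of all its 27025 genes. The other 26 windows held no match. The 8 matches are shown because NRF1 is the factor best known at such promoters, and each is printed 5′ to 3′ on the strand of the gene with 10 flanking bases either side, and capitals mark the match.
Ndufs5 (chr4:123718265-123718294, minus strand): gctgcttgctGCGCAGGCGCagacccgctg
Ndufs6 (chr13:73328479-73328508, minus strand): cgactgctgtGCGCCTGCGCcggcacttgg
Ndufa5 (chr6:24527697-24527726, minus strand): tgtgtgagctGCGCAGGCGCaaatctacct
Ndufa8 (chr2:36049349-36049378, minus strand): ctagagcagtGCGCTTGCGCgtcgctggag
Ndufa11 (chr17:56717692-56717721, plus strand): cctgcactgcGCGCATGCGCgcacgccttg
Ndufb4, upstream (chr16:37654540-37654569, minus strand): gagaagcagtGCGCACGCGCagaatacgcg
Ndufb4, middle (chr16:37654428-37654457, minus strand): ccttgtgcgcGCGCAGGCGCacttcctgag
Ndufb4, proximal (chr16:37654371-37654400, minus strand): cctcatatccGCGCAGGCGCagatgtgcgc
The first base of the match lay between 16 bases (Ndufs6) and 191 bases (the upstream match of Ndufb4) before the start. The match of Ndufa5 lay 190 bases before its downstream start and 26 before its upstream start. In GENCODE M21 the printed windows of Ndufa5, Ndufs6 and Ndufa8 and the proximal window of Ndufb4 lie inside the annotated gene, and the middle window of Ndufb4 crosses its edge. The full 250-base windows of Ndufs6, Ndufa8 and Ndufa11 overlap exons of the neighbours Mrpl36, Morn5 and Vmac. Whether the printed stretches themselves do was not examined. Ndufa11 was the 1 gene with the full palindrome, which 1.84% of tested genes held. The ETS letters CCGGAAG, read by the GABP factor, occurred for 3 of 32 genes (9.38%, against 15.5% of tested genes), and the ERR half-site AAGGTCA for 3 (9.38%, against 3.47%). Matches are a description of these windows and were not measured as binding.

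All 35 transcripts were abundant. Their mean in wild-type hearts ran from 119 CPM (Ndufb4) to 819.8 CPM (Ndufv1), above the 13.99 CPM median of all 12777 tested genes in every case, and no count in any library was below 1520. Divided by the length of the principal annotated transcript, the median level was 406 CPM per kilobase in wild-type and 448 in knock-in hearts. In wild-type hearts 28 of the 35 lay within 2-fold of that median, 2 above this range and 5 below it. Ndufb9, a distal membrane arm subunit of the LYR family, had the highest level, at 1078, 1080 and 909.6 CPM per kilobase in wild-type and 1228, 1065 and 1109 in knock-in hearts. Its neighbour in the order, Ndufb8, whose protein is widely used to gauge complex I on blots, stood at 1046, 1066 and 926 and then 1200, 1223 and 1133 CPM per kilobase, so these top genes overlapped and changed places between libraries. Ndufb10 ranked next after them in each of the 6 libraries.

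The lowest level per length was that of Ndufb2, a small distal membrane arm subunit, at 46.3, 51.0 and 39.0 CPM per kilobase in wild-type and 42.9, 33.9 and 43.4 in knock-in hearts. Ndufab1, Ndufb4, Ndufs4 and Ndufv3 came next. Ndufb2 and Ndufab1 have the longest principal transcripts in the set, 4371 and 3479 bases against a median of 875, and which transcripts the heart used was not measured. Measured per merged exon length, Ndufb2 and Ndufab1 were again last and Ndufb9 first, but Ndufb8 moved from the second place to the 20th. Merged exons include the same long transcripts, so the last places are not an independent check. Without division by length, Ndufb2 had a wild-type mean of 199 CPM and Ndufab1 one of 365 CPM, both above the 119 CPM of Ndufb4. The plot of levels per length gives all 35 genes in both genotypes.

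**Figure D1:**
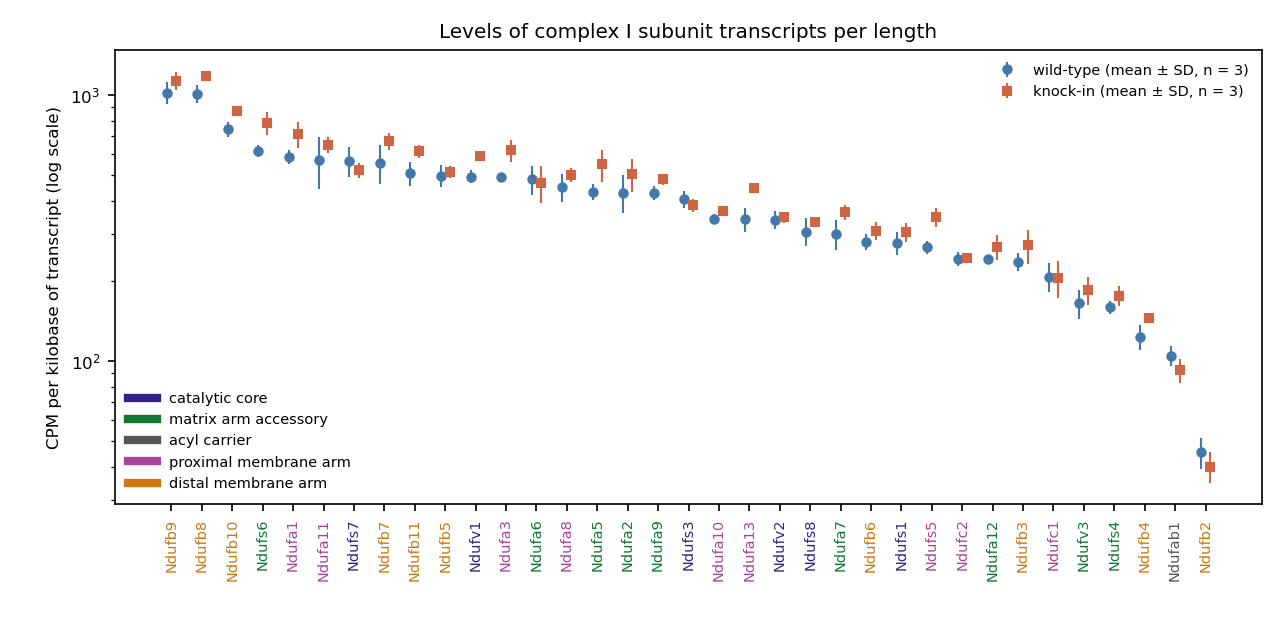
CPM per kilobase of principal transcript (log axis) for the 35 genes in order of the wild-type level; circles and squares are means of 3 wild-type and 3 knock-in hearts, bars are SD, and gene names are coloured by role. The levels run from 45.4 (Ndufb2) to 1023 (Ndufb9) in wild-type hearts, and most genes lie between about 2-fold below and 2-fold above the median of 406.

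None of the 35 transcripts passed the test between genotypes over all genes (edgeR quasi-likelihood, adjusted p from 0.177 to 0.990), where 0.297% of all tested genes did. DESeq2 called 0 as well, where it called 1% of the tested genes. The differences were small and mostly of the same sign. These are bulk samples, in which fewer cells of a type and less RNA per cell cannot be told apart. The log2 fold change was positive for 29 of the 35 (82.9%, against 48.3% of tested genes), with a median of 0.164 against -0.0068 over all tested genes and a range of -0.182 to 0.390. At an unadjusted p under 0.05, 12 of the 35 were higher in the knock-in hearts, beside 4.74% of tested genes, and 0 were lower, beside 5.23%. All 3 knock-in values lay above all 3 wild-type values for 15 of the 35, beside 8.12% of tested genes, and below them for 0, beside 7.99%. These genes were chosen with earlier results of the same data known, so the counts are a description.

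**Figure D2:**
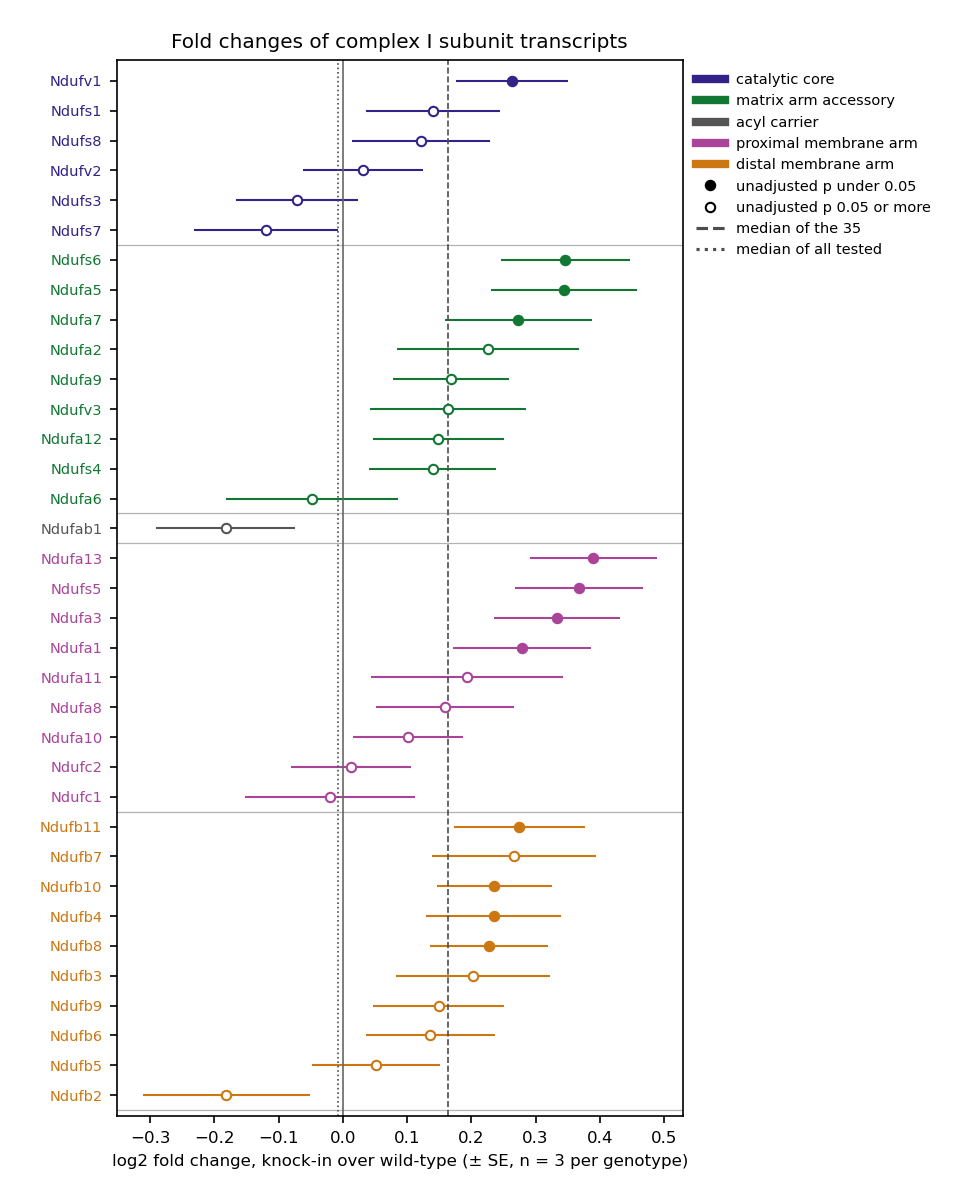
Log2 fold change, knock-in over wild-type, of each of the 35 genes with its SE (3 hearts per genotype), grouped by role; filled points have an unadjusted p under 0.05, the dashed line is the median of the 35 (0.164) and the dotted line that of all tested genes (-0.0068). The positive values reach 0.390 (Ndufa13) and the negative ones -0.182 (Ndufab1), and 0 genes pass after adjustment.

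The size of the difference depended on 2 hearts. The summed CPM of the 35 genes was 14068, 13843 and 12301 in wild-type replicates 1, 2 and 3 and 15791, 14369 and 14770 in knock-in replicates 1, 2 and 3. On this TMM-scaled measure the genotypes did not overlap. The means, 13404 ± 962 and 14977 ± 733 (SD, n = 3), differed by 11.7%, or by 7.32% without wild-type replicate 3. As a share of all counts, without that scaling, the 35 genes made up 1.444%, 1.413% and 1.221% in wild-type replicates 1, 2 and 3. In knock-in replicates 1, 2 and 3 they made up 1.554%, 1.403% and 1.47%, so these shares overlapped between genotypes. Of the 35 genes, 26 had their lowest value of all 6 libraries in wild-type replicate 3 and 25 had their highest in knock-in replicate 1. The 6 genes with negative log2 fold changes had their lowest value in knock-in replicate 2. The count at an unadjusted p under 0.05 was 8 higher and 2 lower without wild-type replicate 3 (3.99% and 5.67% of tested genes). It was 5 higher without knock-in replicate 1 (3.9% of tested genes), 13 when knock-in replicate 2 was left out (7.77%), and 7 when knock-in replicate 3 was (2.8%). The median became 0.10 without wild-type replicate 3 and 0.116 without knock-in replicate 1. Ndufs6, Ndufa3, Ndufa13 and Ndufs5 were higher at an unadjusted p under 0.05 in each of the 6 fits that left out 1 library, beside 1.75% of the genes tested in all 6. With scaling by library size only, the count was 6, beside 3.08% of tested genes.

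Wild-type replicate 3 also had the largest share of counts from the mitochondrial chromosome, 27.95%, against 22.86% to 24.28% in the other libraries. With that share as a covariate, the median was 0.0708, 8 genes were higher (beside 4.46% of tested genes) and 3 lower (beside 6.39%) at an unadjusted p under 0.05, and 7 of the original 12 were among the 8. Because the extreme share lies in 1 wild-type library, the covariate is partly tied to genotype. In a fit of 6 libraries it can take up part of a genotype difference, so 0.0708 is not a corrected estimate. The wild-type coefficients of variation had a median of 8.53% over the 35 genes, against 7.46% in the knock-in hearts, and 3.24% between wild-type replicates 1 and 2 alone. Counts of each pair of libraries within a genotype differed by more than counting noise, with a chi-square over its degrees of freedom of 6.7 to 25.1 for all genes, so none looked like a library deposited again. The design text gives 3 hearts per genotype, while the labels number the samples separately without naming the animals. P-values measure only the spread between these samples, part of which may be technical.

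**Figure D3:**
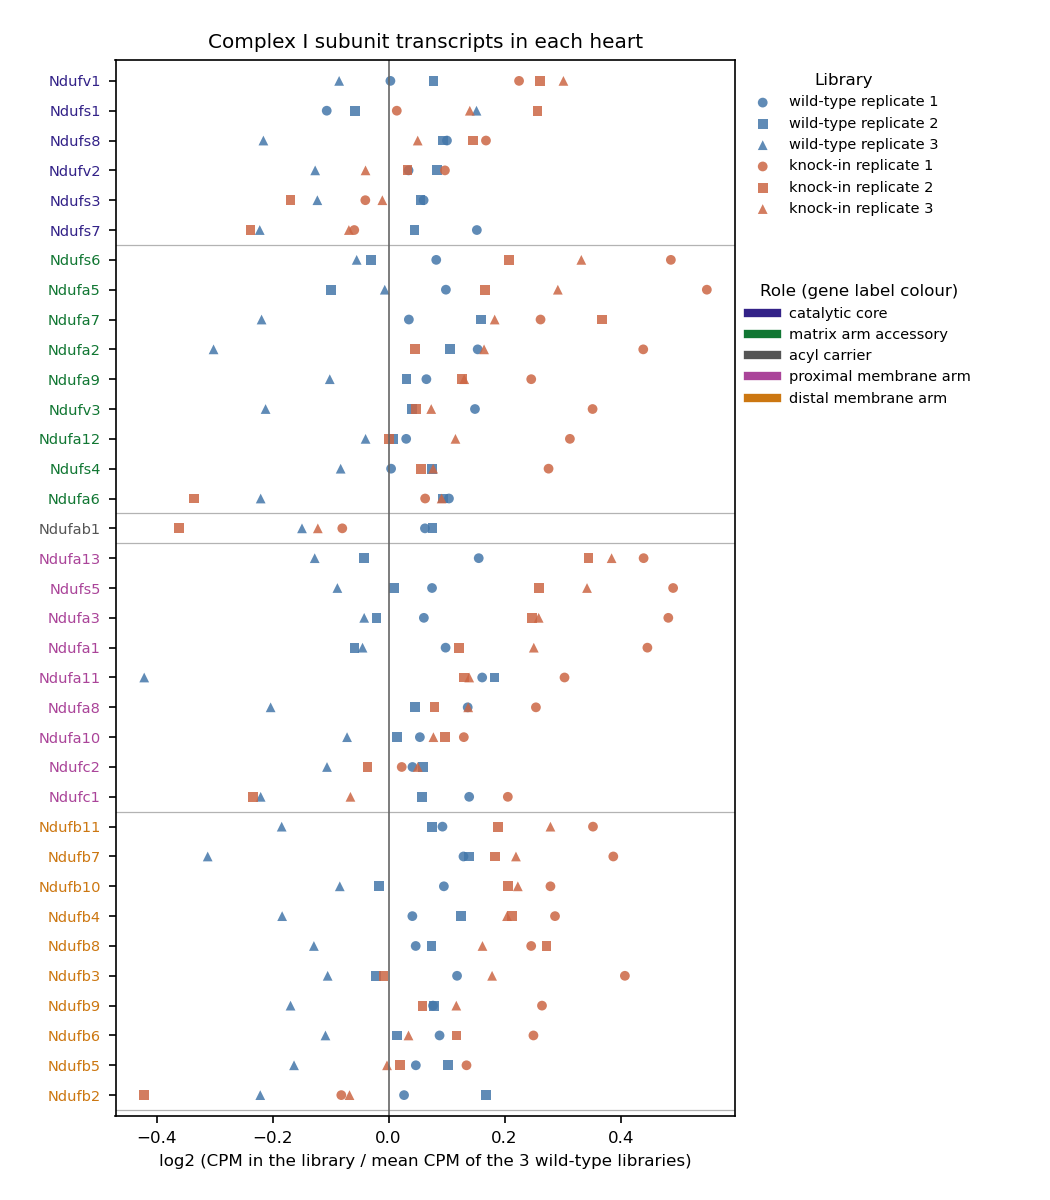
Each row is 1 of the 35 genes and each point 1 library, placed at log2 of its CPM over the mean CPM of the 3 wild-type libraries; blue is wild-type, orange knock-in, and the marker shape gives the replicate. Blue triangles (wild-type replicate 3) lie at the left in most rows, orange circles (knock-in replicate 1) at the right, and the 2 colours separate in 15 rows.

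The catalytic core subunits carry the flavin, the iron-sulphur clusters and part of the quinone site. Of the 6 genes measured, 4 had a positive log2 fold change and the median was 0.0765. At an unadjusted p under 0.05, 1 was higher, beside 4.74% of tested genes. That gene was Ndufv1, which binds NADH and the flavin. It stood at 822, 865 and 773 CPM in wild-type and 958, 983 and 1010.2 CPM in knock-in hearts. Every knock-in heart lay above every wild-type heart (log2 fold change 0.26 ± 0.09 SE, unadjusted p = 0.0119, edgeR adjusted p = 0.322). Ndufs1, the largest core subunit with several iron-sulphur clusters, had 687, 710.2 and 821 CPM in wild-type and 747, 883 and 815 CPM in knock-in hearts. The groups overlapped, and Ndufs1 was the 1 gene of the 35 above its mean in wild-type replicate 3 (0.14 ± 0.10, adjusted p = 0.731). The other cluster-bearing subunits showed smaller values, 0.12 for Ndufs8, 0.03 for Ndufv2 and -0.12 for Ndufs7, whose cluster is the last before ubiquinone. Ndufs3, at -0.07, completed the group.

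Among the 9 accessory subunits of the matrix arm, 8 had positive log2 fold changes, and the median was 0.169. There was no overlap between genotypes for 4, beside 8.12% of tested genes with all knock-in values higher. Of the 9, 3 were higher at an unadjusted p under 0.05, beside 4.74% of tested genes. Ndufs6, a zinc-binding subunit fitted late in assembly, was at 372, 344 and 338 CPM in wild-type and 493, 406 and 443 CPM in knock-in hearts. The genotypes did not overlap (log2 fold change 0.35 ± 0.10 SE, unadjusted p = 0.00542, edgeR adjusted p = 0.240). Ndufa5, part of the quinone-binding module, was at 405, 353 and 377 CPM and then 553, 424 and 463 CPM. Here too the genotypes did not overlap, with knock-in replicate 1 far above the rest (0.34 ± 0.11, unadjusted p = 0.0114, adjusted p = 0.318), and without that heart the log2 fold change was 0.24. Ndufa7 (0.27) was another with an unadjusted p under 0.05, and Ndufa9 (0.17), which holds a bound nucleotide near the junction of the arms, also had separate groups. Values for the remaining genes were 0.23 for Ndufa2, which has a thioredoxin-like fold, 0.16 for Ndufv3, 0.15 for Ndufa12, 0.14 for Ndufs4, whose loss in mice is a model of Leigh syndrome, and -0.05 for Ndufa6. None of these 5 had separate groups.

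Ndufab1 is the mitochondrial acyl carrier protein, which serves fatty acid and lipoate synthesis as well as complex I. It had the lowest log2 fold change of the set. Its values were 381, 384 and 329 CPM in wild-type and 345, 284 and 335 CPM in knock-in hearts. The groups overlapped through wild-type replicate 3 (-0.18 ± 0.11 SE, unadjusted p = 0.120, edgeR adjusted p = 0.640). Without wild-type replicate 3 the log2 fold change was -0.25 at an unadjusted p of 0.0384. Ndufs7 was the other gene lower at that level there, with -0.22 and an unadjusted p of 0.0440.

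The proximal part of the membrane arm, which adjoins the matrix arm, held the genes with the smallest p-values. Of its 9 genes 8 had positive log2 fold changes and the median was 0.193. There was no overlap for 5, beside 8.12% of tested genes with all knock-in values higher. Of the 9, 4 were higher at an unadjusted p under 0.05, beside 4.74% of tested genes. Ndufa13 (ENSMUSG00000036199, chromosome 8, 69894180 to 69902558, GRCm38), also known as Grim19 and studied for a role in cell death, had the smallest p and the highest log2 fold change of the 35. It was at 476, 415 and 391 CPM in wild-type and 579.6, 543 and 558 CPM in knock-in hearts. The lowest knock-in heart stood above the highest wild-type heart (0.39 ± 0.10 SE, unadjusted p = 0.00231, edgeR adjusted p = 0.177). Over the alternatives its log2 fold change ran from 0.326 to 0.502. It passed the threshold under 2 of them, without a filter on low counts (adjusted p = 0.0232, where 1.46% of genes were called) and with the trend over GC content removed (adjusted p = 0.0435, where 0.399% were called).

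Ndufs5 (ENSMUSG00000028648, chromosome 4, 123712710 to 123718202), which faces the intermembrane space and whose promoter match is printed above, was at 193, 184 and 172 CPM in wild-type and 257, 219 and 232 CPM in knock-in hearts. The genotypes did not overlap (log2 fold change 0.37 ± 0.10 SE, unadjusted p = 0.00363, edgeR adjusted p = 0.214). Ndufa3 (0.33) and Ndufa1 (0.28), small proteins that span the membrane, also had unadjusted p-values under 0.05 and separate groups. Ndufa10, a member of a nucleoside kinase family, had separate groups with a small difference, 0.10. Ndufa11 stood at 0.19 and Ndufa8 at 0.16, both with overlap. Ndufc2 lay nearest to 0 and had the largest p, with 171, 173 and 154 CPM in wild-type and 169, 162 and 172 CPM in knock-in hearts. The groups overlapped (0.01 ± 0.09, adjusted p = 0.990), as they did for Ndufc1 (-0.02), with which its protein pairs in the membrane arm.

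In the distal part of the membrane arm, 9 of 10 genes had positive log2 fold changes and 5 had no overlap, with a median of 0.215. All knock-in values were higher for these 5, beside 8.12% of tested genes. Of the 10, 4 were higher at an unadjusted p under 0.05, beside 4.74% of tested genes. Ndufb11, an X-linked gene whose mutation causes disease of heart and skin, was at 492, 486 and 406 CPM in wild-type and 589, 526 and 560.0 CPM in knock-in hearts. The genotypes were separate (log2 fold change 0.27 ± 0.10 SE, unadjusted p = 0.0216, edgeR adjusted p = 0.392). Ndufb10 was at 581, 537 and 513 CPM and then 659.8, 627 and 635 CPM, again without overlap (0.24 ± 0.09, unadjusted p = 0.0228, adjusted p = 0.395). Ndufb4 (0.24) and Ndufb8 (0.23) had unadjusted p-values under 0.05 as well, and Ndufb7 (0.27) had separate groups with an unadjusted p of 0.0609. For Ndufb3 the value was 0.20, for Ndufb9 0.15, for Ndufb6 0.14 and for Ndufb5 0.05. Ndufb2 alone in this group was negative, at 202, 223 and 170.3 CPM in wild-type and 188, 148 and 189 CPM in knock-in hearts, which overlapped (-0.18 ± 0.13, adjusted p = 0.723).

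The 6 genes with an NRF1-like match had log2 fold changes of 0.37 (Ndufs5), 0.35 (Ndufs6), 0.34 (Ndufa5), 0.24 (Ndufb4), 0.19 (Ndufa11) and 0.16 (Ndufa8). Ndufa13 and Ndufa3, with values of 0.39 and 0.33, had no match in the window. The same held for Ndufv1, Ndufa7, Ndufa1, Ndufb8, Ndufb10 and Ndufb11, which also had unadjusted p-values under 0.05. It held for the 6 genes with negative log2 fold changes as well. Whether NRF1 had a part in any of these values was not tested. Nrf1 itself was at 8.22 ± 0.328 CPM in wild-type and 9.52 ± 0.848 CPM in knock-in hearts (SD, n = 3; log2 fold change 0.21 ± 0.15 SE, edgeR adjusted p = 0.70).

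Most mitochondrially encoded subunits of the same complex had values of the other sign. Of the 7 mt-Nd genes 5 had negative log2 fold changes and 2 positive ones, up to 0.0794, with a median of -0.323. Of these genes 0 were called, with 3 lower at an unadjusted p under 0.05, beside 5.23% of tested genes. Their summed CPM overlapped between genotypes, at 72610 to 96150 in wild-type and 70760 to 79510 in knock-in hearts. The highest sum was that of wild-type replicate 3. The abundant mt-Nd1, part of the quinone channel, was at 29254 ± 4916 CPM in wild-type and 24743 ± 2215 CPM in knock-in hearts (log2 fold change -0.24 ± 0.12 SE, adjusted p = 0.570). The lowest p-values belonged to the scarcely counted mt-Nd3 (-1.07 ± 0.23, adjusted p = 0.104) and mt-Nd4l (-0.85 ± 0.18, adjusted p = 0.111), both under 10 CPM. Next came mt-Nd6 (-0.41 ± 0.12, adjusted p = 0.255). Reads shared with nuclear copies of mitochondrial DNA can lower such counts, and this was not measured. Wild-type replicate 3 had the highest median level of this list, 0.250 above the mean of all libraries on the log2 scale, and the lowest of the nuclear subunits, at -0.201.

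Complex I assembly factors, which help build the complex but are not part of it, lay close to 0. Of 18 listed genes 17 were tested, 7 had positive and 10 negative log2 fold changes, the median was -0.0343 and 0 were called. The 1 gene with an unadjusted p under 0.05 was Ndufaf8, which stabilises the Ndufs7-modifying enzyme Ndufaf5, at 21.2 ± 2.52 and 14.8 ± 2.05 CPM (SD, n = 3; log2 fold change -0.52 ± 0.15 SE, edgeR adjusted p = 0.233). Ndufaf4, Timmdc1 and Tmem70 followed, with -0.21, -0.16 and -0.14. Of all tested genes, 5.23% were lower at an unadjusted p under 0.05.

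For the other complexes of the chain the nuclear-encoded subunits were read the same way. The median log2 fold change was 0.0785 for complex II (4 of 4 genes positive), 0.0534 for complex III (7 of 9), 0.225 for complex IV (9 of 13) and 0.14 for complex V (12 of 15), with 0 genes called in each. At an unadjusted p under 0.05, complex III had 2 genes higher, complex IV 8 higher and 2 lower, and complex V 5 higher. Of all tested genes, 4.74% were higher and 5.23% lower at that level. The gene with the smallest p was Sdhc in complex II, Uqcrh in complex III, Cox6b1 in complex IV and Atp5l in complex V. Their log2 fold changes were 0.20, 0.34, 0.32 and 0.34. The 2 lower genes of complex IV were Cox8a (-0.46) and Cox6a1 (-0.45). No difference between the complexes was tested. Among 14 regulators of mitochondrial biogenesis 11 were negative, with a median of -0.0847 and 0 called. The smallest p was that of Esrra, the oestrogen-related receptor that drives respiratory genes, at -0.29 ± 0.12 (adjusted p = 0.442). The regulators had their highest median level in wild-type replicate 3 (0.268) and their lowest in knock-in replicate 1, the reverse of the complex I genes.

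**Figure D4:**
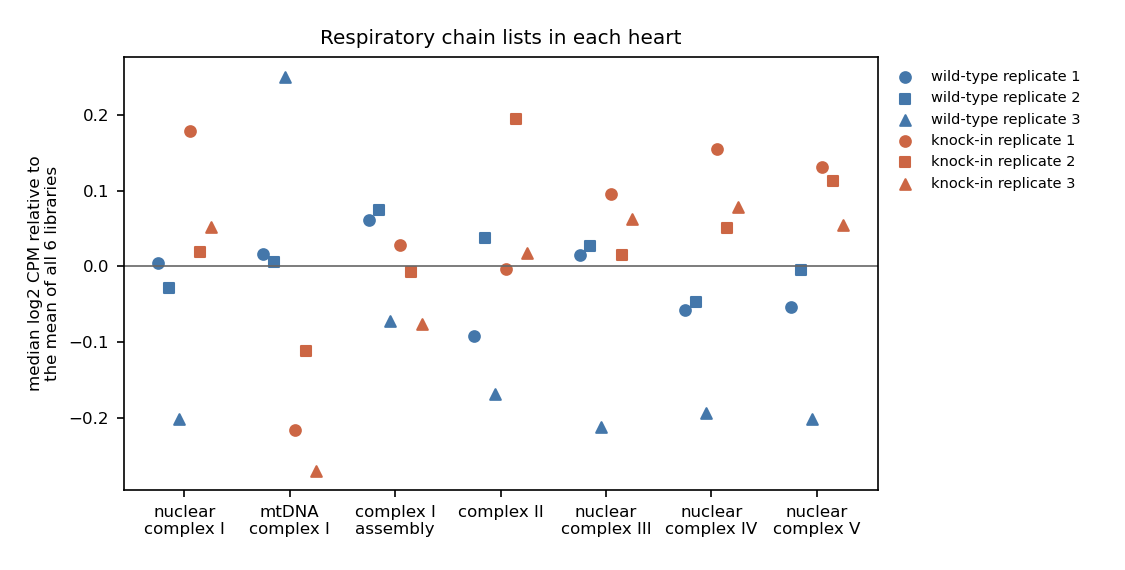
Median over the genes of each list of log2 CPM relative to the mean of all 6 libraries, 1 point per heart; blue is wild-type, orange knock-in, and the shape gives the replicate. Wild-type replicate 3 (blue triangle) is lowest for nuclear complexes I to V, from -0.168 to -0.212, and highest for the mtDNA-encoded subunits of complex I, at 0.250.

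Among markers of the cells in the samples, the summed levels of some lists were separate between genotypes and those of others overlapped. The counts of called markers stand beside 0.297% of all tested genes called in either direction. The 12 cardiomyocyte markers, all abundant, summed to 88650 to 92670 CPM in wild-type and 97620 to 108300 CPM in knock-in hearts, with 9 of 12 positive, a median of 0.0809 and 1 called, Myl2. Like the complex I genes, these markers had their lowest median level in wild-type replicate 3 (-0.161) and their highest in knock-in replicate 1. Myl2 was at 10525 ± 583 CPM in wild-type and 15409 ± 343 CPM in knock-in hearts (SD, n = 3). Without Myl2 the sums of the other cardiomyocyte markers overlapped between genotypes. The 10 macrophage markers summed to 341 to 397 CPM in wild-type and 262 to 282 CPM in knock-in hearts, with 10 of 10 negative and 1 called, Lyz2. Red blood cell markers summed to 463 to 635 and 1447 to 1916 CPM, and 5 of 5 were called higher. Endothelial markers summed to 629.7 to 869 and 577 to 849.9 CPM, fibroblast markers to 638 to 666 and 582 to 733 CPM, both with 0 called. Smooth muscle and pericyte markers summed to 920 to 963 and 771 to 912 CPM, with 1 of 9 called, Acta2, which was lower. Acta2 was at 189 ± 17.1 CPM in wild-type and 80.1 ± 11.8 CPM in knock-in hearts (SD, n = 3). Without Acta2 the sums of the other markers in this list overlapped between genotypes. Skeletal muscle markers summed to at most 3.38 CPM in any heart. Of 6 adipocyte markers, 5 had at most 3 counts in every library, and the sum, 21.1 to 23.2 and 31.6 to 37.2 CPM, was nearly all Cidea. The part of these cells in the complex I values was not tested.

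Short transcripts as a class were slightly higher in the knock-in hearts. Tested genes whose longest transcript is under 1000 bases had a median log2 fold change of 0.0676 (690 genes, 59.6% positive), against -0.0153 for those of 2000 bases or more (9998 genes). The 17 complex I genes in the shorter class had a median of 0.235 with 16 positive, and the 8 in the longer class one of 0.121 with 6 positive. With the trend over transcript length removed from each library, the median of the 35 was 0.138 with 28 positive, and 9 of the 12 genes kept an unadjusted p under 0.05 (5.63% of tested genes were higher).

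Many of these genes have processed pseudogenes or overlap a neighbour, which could take or add reads, since nothing tells how strand and multiply mapped reads were handled. For 10 of the 35 genes no 31-base word of the longest transcript occurred in another gene's transcript, and these had a median log2 fold change of 0.131, with 8 positive. The 8 genes that shared at least 20% of their words had a median of 0.192, with 7 positive. Ndufa13 shares 28.3% with Tssk6 on the opposite strand, which had 4 counts in wild-type replicate 1 and 0 in the other libraries. Ndufs5 shares 36% with the pseudogene BC002163, whose counts came to 0.596% of those of Ndufs5. Ndufs3 had the largest shared part, 55.0%, and the counts of its main pseudogene came to 0.267% of its own. The partners with the most counts lie on the opposite strand. Braf had 6% of the counts of Ndufb2, Mrpl47 had 5.22% of those of Ndufb5 and Smim27 had 3.56% of those of Ndufb6, with 2.67%, 16.1% and 36.1% of the words shared.

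**Figure D5:**
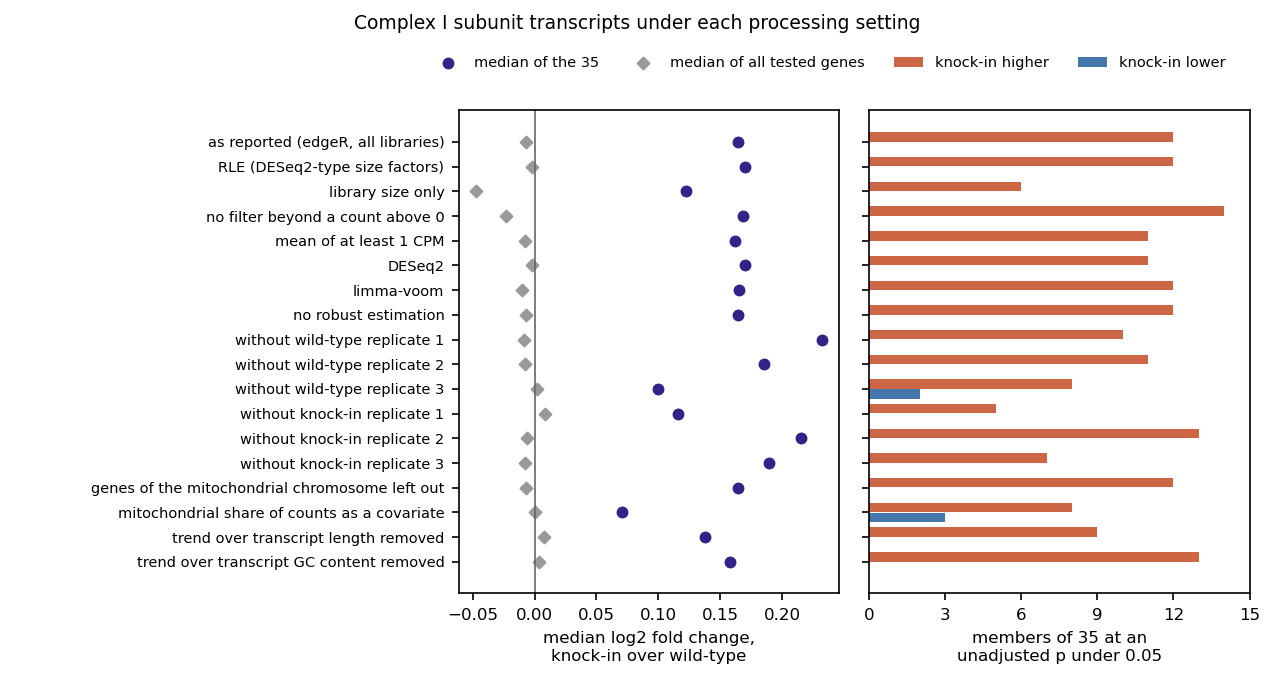
Left, the median log2 fold change of the 35 genes (circles) and of all tested genes (diamonds) under each processing setting; right, how many of the 35 had an unadjusted p under 0.05, higher (orange) or lower (blue) in the knock-in hearts. The median of the 35 stays above 0 in each setting drawn, between 0.0708 and 0.232, and the count of higher genes lies between 5 and 14.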

How the data were processed

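Read counts per gene were deposited by the authors as whole numbers with no normalization, 1 column per heart, matched to samples by the sample descriptions. GRCm38.p6, DESeq2, STAR, Subread 1.5.2 and featureCounts appear in the submitters' processing notes without a stated role. How strand and multiply mapped reads were handled, and with which annotation, is not given in the sources used here. GENCODE M21 held 49056 of the 49315 identifiers, and all were kept.

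The test was that of edgeR 4.0.16 under R 4.3.3, with filterByExpr, TMM, robust glmQLFit and glmQLFTest on genotype over all 6 libraries. A gene is called at a Benjamini-Hochberg adjusted p under 0.05 over 12777 genes. Each fold change sets knock-in over wild-type, and its SE is the log2 fold change over the square root of F. The labels put the hearts in groups without replicate numbers, so replicates are numbered in accession order and pair no samples. Nothing in the labels says whether litters or dates differed. Reads carry no molecular identifiers.

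Levels per length used the APPRIS principal transcript. DESeq2 1.42.0 and limma 3.58.1 (voom), scaling, filters, left-out libraries, a covariate and trend corrections by lowess (span 0.3) were alternatives. The functions were tested on simulated data.

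Values in every library are printed for the genes with the smallest and largest p, the highest and lowest level and fold change, and the 2 smallest p in each role group. From other lists up to 4 genes with the smallest p are named. Ndufb8 in the levels, the genes with promoter matches and the partners of shared sequence were named after their values were seen. The genes and lists were chosen with earlier results of these data known.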

Additional observations from a re-analysis of the deposited data

How the results depend on the processing

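Of the 35 genes, 29 kept the sign of their log2 fold change under each of the 17 alternatives that gave gene values. The other 6 lay near 0 or had wide spread. Ndufv2 was -0.0107 with library size only and -0.0452 with the mitochondrial share as a covariate, where Ndufa11 was -0.0206 and Ndufb5 -0.0468. Ndufc2 was -0.0286, -0.0486 and, with the length trend removed, -0.0595. Leaving out 1 library gave -0.0282 to 0.0756 for Ndufv2, -0.147 to 0.0876 for Ndufa6, -0.137 to 0.0872 for Ndufc1, -0.0377 to 0.0464 for Ndufc2 and -0.0235 to 0.106 for Ndufb5. The median of the 35 ran from 0.0708 (with the covariate) to 0.232 (without wild-type replicate 1).

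The count of genes higher at an unadjusted p under 0.05, 12 with all libraries, was 6 with library size only and 5 (without knock-in replicate 1) to 13 (without knock-in replicate 2) with a library left out. The count lower was 3 with the covariate and 0 to 2 with a library left out. The count of called genes among the 35 was 1 without a filter and 1 with the GC trend removed, Ndufa13 both times, 0 under each of the other alternatives, and 0 at an adjusted p under 0.1. Over all genes, 38 were called, against 317 without a filter, 128 by DESeq2, 18 by limma-voom, 14 with the covariate, 75 at an adjusted p under 0.1 and 5 to 174 with a library left out; the cause was not tested. No paired analysis was possible because the labels carry no replicate numbers.

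With 3 hearts per genotype the SE of a log2 fold change was about 0.1 for most of these genes, which is as large as many of the differences; counting error is small beside it, since each gene had at least 1520 counts per library.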
